A study of Xenopus laevis with 54 samples.

Results

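RNA that was left behind by the capture of newly made transcripts was compared between 7 and 5 hours post fertilization (hpf) in Xenopus laevis embryos. The comparison used 8 of the 54 libraries of the series, 4 flowthrough libraries at each time. It covered the 18171 of 50489 genes whose normalized value was at least 10 in 4 or more of these 8 libraries, and the other 32318 genes were not tested.

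All groups but the unfertilized eggs were wild-type blastula embryos. They had received 10 nl of 50 mM EU by microinjection at the 1-cell stage, to a final concentration near 0.5 mM. For the egg libraries no EU is listed. EU is 5-ethynyl uridine, a uridine analogue that cells build into RNA made after the injection. After RNA isolation the EU-RNA was coupled to biotin and bound to streptavidin beads, and the flowthrough is what the beads did not hold. Both times share the injection. Replicates 1 and 2 belong to a first experiment and replicates 3 and 4 to a second, each described as its own clutch. Sets of total RNA, bead RNA and egg RNA libraries served only as side readouts.

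A frog egg is loaded with messages made by the mother, and the first cell cycles run on them while the genome of the embryo is nearly silent. Around the mid-blastula transition the embryo switches on its own genes, and part of the maternal store is then removed, in part by factors that shorten poly(A) tails and expose the message to decay. X. laevis is an allotetraploid, so many genes exist as a long-chromosome copy (.L) and a short-chromosome copy (.S).

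The flowthrough libraries held maternal RNA. The summed normalized value of 17 maternal marker genes (btg4, zar1, mos, ccnb1, gdf1, vegt, dazl and h1-8) was 15703 to 16938 per library at 5 hpf and 15606 to 16581 at 7 hpf. The gdf1 and zar1 genes added little: gdf1.S read 0 throughout, the gdf1.L entries at most 96, zar1.L at most 43 and zar1.S at most 245. For 13 genes that the blastula itself transcribes (mix1, gs17, bix1.2, sia1, nodal5, ventx2.2 and eomes), the sum was 1 to 3 at 5 hpf and 9 to 28 at 7 hpf, and none passed the filter. On beads at 7 hpf ventx2.2.S alone read 611 to 1406. Blood markers summed to at most 4 in any library and markers of differentiated tissue to at most 38, the latter mostly from myod1.L. Follicle and ovary markers summed to 380 to 498 at 5 hpf and 366 to 546 at 7 hpf, nearly all from cyp17a1.L and amh.S, with both copies of the receptor fshr at 0 or 1.

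Libraries of different experiments were alike in pairs that the labels do not explain. Over 8601 genes with a mean of at least 200, the standard deviation of the log2 difference between replicates 1 and 3 was 0.22 at 5 hpf and 0.27 at 7 hpf, and between replicates 2 and 4 it was 0.18 and 0.21. Between replicates 1 and 2 of the first experiment it was 0.36 and 0.39. One gene shows this plainly: Xelaev18003734m read 18061 and 18064 in replicates 1 and 3 at 5 hpf, and 7090 and 7636 in replicates 2 and 4. Whether replicates 1 and 3, or 2 and 4, share parents was not tested, and counts are therefore also given with each such pair averaged.

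More genes fell than rose between 5 and 7 hpf. With limma on log2(value + 1), the replicate number as a block and Benjamini-Hochberg adjustment over all genes tested, 279 genes were lower at 7 hpf (1.54% of those tested) and 86 were higher (0.473%). With each alike pair averaged, 138 were lower and 35 higher, and with size factors computed again by the median of ratios, 219 were lower and 137 higher. The median change of the genes that fell was -0.44 on the log2 scale, a change of -26.4% in level, and that of the genes that rose was 0.24. The median over all genes tested was -0.02. A change of at least 2-fold was rare, with 7 genes lower (0.0385%) and 2 higher (0.011%). With an experiment term in place of the block the same contrast called 7 genes lower and 1 higher. With neither term it called 1 lower and 1 higher. The 4 values of 5 hpf and of 7 hpf did not overlap for 155 of the 279 genes that fell and 46 of the 86 that rose. Of all genes tested, 2.81% were lower and 1.25% higher without overlap. Changes here are relative to the other RNA of a library, and in whole embryos fewer cells of a type and less RNA per cell cannot be told apart.

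**Figure D1:**
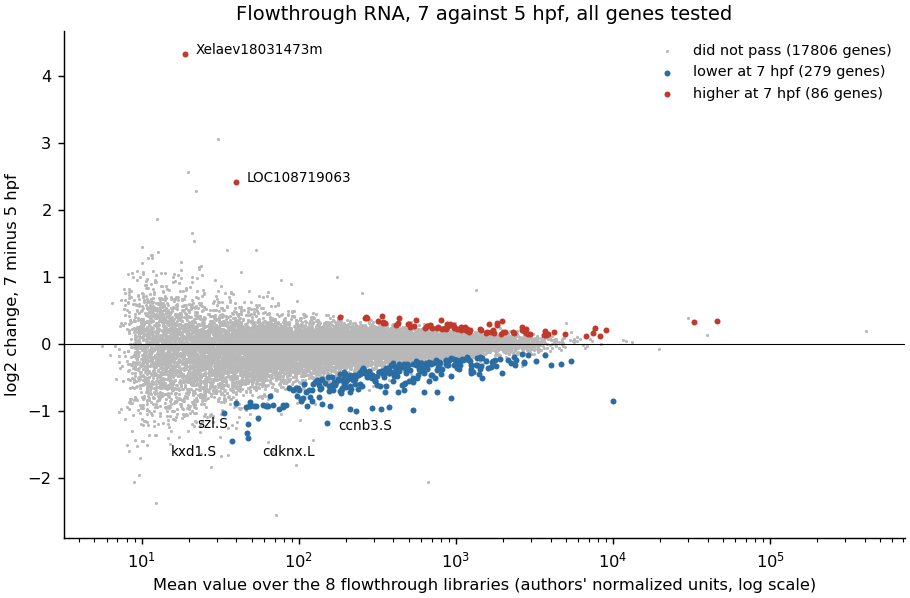
Each point is 1 of the 18171 genes tested, with the mean normalized value over the 8 flowthrough libraries on the x axis (log scale) and the log2 change from 5 to 7 hpf on the y axis; blue points fell (279 genes), red points rose (86 genes) and grey points did not pass. The quartiles of the blue points are -0.62 and -0.31, and all but 2 of the red points stay under a 2-fold change.

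The genes that fell spanned 5 hpf means of 45.25 to 12713 and, like nearly all genes tested, were present in eggs. Their median 5 hpf value was 473, against 181 over all genes tested and 1054 for the genes that rose. All 279 had a mean of at least 10 in the 2 unfertilized egg libraries, as did 96.5% of all genes tested. In 274 of them the value was lower at 7 hpf in all 4 replicates, as in 2392 of all 18171 genes tested. The calls were made on these same pairs, so this is not further support. Their median change was -0.15 from 5 to 6 hpf and -0.29 from 6 to 7 hpf. Over all genes, the first step alone called 2 genes lower (0.011%) and 6 higher (0.033%), and the second 23 lower (0.127%) and 2 higher (0.011%). For the genes that rose the medians were 0.16 in the first hour and 0.07 in the second. The hourly steps share the 6 hpf libraries, and the difference between them was not tested.

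Many calls at this number of libraries were lost when a replicate or a library was left out. When each of the 4 replicates was left out in turn, the count of lower genes was 99 to 224 and that of higher genes 22 to 51. Of the 279 genes that fell, 55 stayed below the threshold in all 12 fits that left out a replicate or a library and with alike pairs averaged, and of the 86 that rose 8 did. Leave-out results stand beside the genes described below that lost their call in any of these 12 fits. The 12 genes of largest change named in each direction were picked among calls without overlap. For them the lack of overlap was required and adds no support.

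The messages that act on other maternal messages were among those that fell. Btg4 links the CCR4-NOT deadenylase to maternal messages and is needed for their clearance in mouse. Its long copy, btg4.L, read 644, 512, 613 and 619 at 5 hpf in replicates 1 to 4 and 411, 378, 409 and 426 at 7 hpf. The groups did not overlap, and the log2 change was -0.55 ± 0.09 (SE; limma adjusted p = 2.67e-04). Its short copy, btg4.S, went from 1604 ± 43.1 to 1248 ± 97.3 (SD, n = 4), or -0.37 on the log2 scale. By 9 hpf the means of the copies were 145 and 600.

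Zfp36l2 proteins bind AU-rich elements and promote the decay of the messages that carry them. The gene zfp36l2.2.L read 1653, 1467, 1874 and 1913 at 5 hpf and 1159, 1037, 1344 and 1334 at 7 hpf. All 4 values of 7 hpf lay below all 4 of 5 hpf, with a log2 change of -0.50 ± 0.07 (SE; limma adjusted p = 1.92e-05). Its relative zfp36l2.1.S fell by 0.72 on the log2 scale (limma adjusted p = 0.0542 without replicate 1). Pabpn1l.S, an oocyte poly(A) binding protein, fell from 150 ± 30.1 to 85.5 ± 10.2 (SD, n = 4), with a limma adjusted p of 0.0722 without replicate 4.

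Most genes of this machinery did not pass. Of 68 tested genes of deadenylation and decay, only both btg4 copies fell (2.94%, against 1.54% of all genes tested) and none rose. The list median was -0.01, and its sign turned with size factors computed again. Of 82 genes whose products bind maternal messages, 5 fell and 1 rose. The fifth and smallest fall was celf1.S, which binds GU-rich elements, at -0.21 (limma adjusted p up to 0.368 when a replicate was left out).

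Messages known to be cleared after oocyte maturation or fertilization held several of the falls. In that list 12 of 53 tested genes fell, none rose, and the median change was -0.14, against 1.54% of genes lower and a median of -0.02 over all genes. This list, like all gene lists given here, was compiled with earlier results of these data known. A gene can belong to more than 1 list, as both btg4 copies do, so counts of different lists are not independent. Besides both btg4 copies, aurka.L, the Aurora A kinase of the spindle poles, read 1038, 1122, 1049 and 1108 at 5 hpf and 747, 777, 758 and 845 at 7 hpf. The groups were well apart, with a log2 change of -0.47 ± 0.07 (SE; limma adjusted p = 1.67e-05), and aurka.S changed by -0.37. Fbxo43, also called Emi2, holds the egg in meiotic arrest in Xenopus, and both copies fell, fbxo43.L by 0.44 and fbxo43.S by 0.25 on the log2 scale. Their limma adjusted p rose to 0.0934 without replicate 1 and 0.114 without replicate 2. Bmp15.L, an oocyte growth factor, fell from 146 to 98.2 (limma adjusted p up to 0.168 when a replicate was left out).

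Several classic maternal messages showed no call over these 2 hours. Ccna1.L, the embryonic cyclin A, read 7223 ± 1364 at 5 hpf and 7432 ± 1321 at 7 hpf (SD, n = 4), and its log2 change was 0.04 with a 95% half-width of 0.06 (-0.11 with quantile normalization). Ccnb1.L, cyclin B1, read 1808 and 1756, a change of -0.04 with a half-width of 0.10. Mos.L, the kinase that keeps the egg in metaphase, read 2286 and 2113, a change of -0.12 with a half-width of 0.12. H1-8.S, the oocyte linker histone, changed by 0.02, and pou5f3.3.L, a maternal pluripotency factor, by 0.01. The vegetally stored vegt.L and vegt.S, which encode a T-box factor of the endoderm, changed by 0.07 and 0.11, and dazl.L of the germ plasm by 0.07. None of these met the threshold, which does not show that they were stable. At 9 hpf the means of ccna1.L, ccnb1.L and mos.L were 5090, 1227 and 1739.

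**Figure D2:**
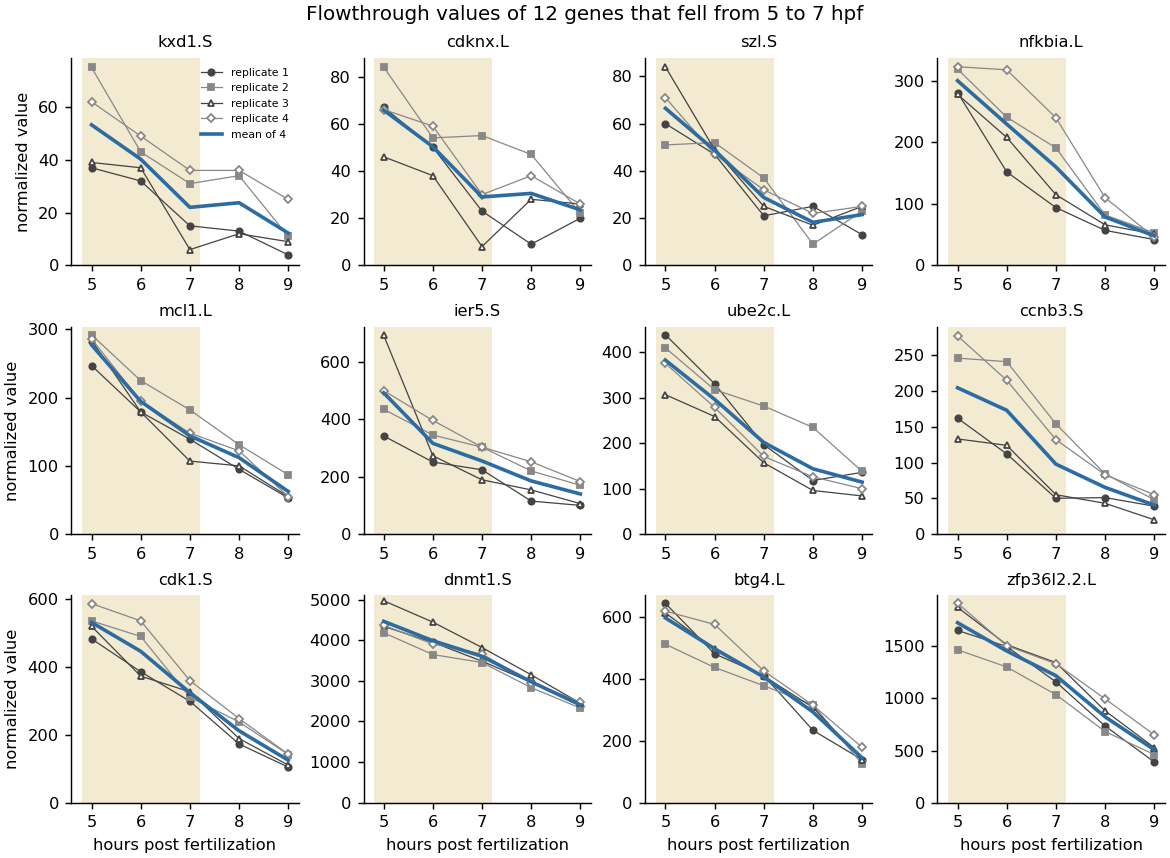
Flowthrough values of 12 genes that fell, from 5 to 9 hpf (x axis, hours) in normalized units (y axis, from 0), with 1 thin line per replicate and the mean of 4 in blue; the shaded span is 5 to 7 hpf. In btg4.L, cdk1.S and dnmt1.S the replicates run close together, while in ier5.S the mean at 5 hpf is raised by replicate 3 (693) and in ccnb3.S replicates 1 and 3 lie below 2 and 4 throughout.

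Of 129 tested mitotic cell cycle genes 20 fell, none rose and 109 did not pass, where 1.54% of all genes fell. The list median was -0.07, against -0.02 over all genes, and with alike pairs averaged 15 members fell. Cdk1 is the kinase that drives entry into mitosis. The copy cdk1.S read 483, 536, 520 and 587 at 5 hpf and 299, 311, 327 and 360 at 7 hpf. Every replicate fell and the groups lay far apart, with a log2 change of -0.71 ± 0.09 (SE; limma adjusted p = 2.39e-06), and the mean at 9 hpf was 125. The other copy, cdk1.L, fell from 665 to 470 (limma adjusted p = 0.0165, and 0.249 without replicate 3).

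Among the mitotic genes that kept the call in all 12 leave-out fits, cyclin B3 gave the steepest fall. Ccnb3.S read 162, 246, 133 and 277 at 5 hpf and 50, 154, 55 and 132 at 7 hpf. The groups overlapped because replicates 1 and 3 started low, but each replicate fell, by 1.17 ± 0.17 on the log2 scale (SE; limma adjusted p = 1.92e-05).

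Ube2c, outside that list, hands ubiquitin to the anaphase-promoting complex. Ube2c.L read 439, 410, 307 and 376 at 5 hpf and 197, 282, 157 and 171 at 7 hpf, without overlap, a log2 change of -0.95 (limma adjusted p = 8.11e-06). Its short copy fell from 178 to 117 (limma adjusted p up to 0.175 when a replicate was left out). Fbxo5.S, or Emi1, an inhibitor of the same complex, fell by 0.47 on the log2 scale.

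The abundant mitotic kinases fell by smaller shares. Plk1.S, Polo-like kinase, went from 2977 ± 179 to 2477 ± 220 (SD, n = 4), a decrease of 16.9%, and plk1.L changed by -0.29 on the log2 scale. Aurkb.L, the kinase of the chromosomal passenger complex, went from 1996 to 1596. Plk3.S, another Polo-like kinase, went from 1413 to 1091. Outside the list, tacc3.S, a spindle protein known in Xenopus as maskin, went from 1848 to 1475, and melk.L, a maternal embryonic kinase, from 1435 to 1073. Birc7.S, an inhibitor of apoptosis protein and not a kinase, fell by a larger share, from 776 to 477.

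The replication and repair genes given here belong to no list, and all but rfwd3.S were chosen after their values were seen. Top2a.L, topoisomerase II alpha, read 2663, 2673, 2578 and 2597 at 5 hpf and 2074, 2072, 2223 and 2130 at 7 hpf. The 4 values of each time were close together, and the log2 change was -0.31 ± 0.04 (SE; limma adjusted p = 1.1e-05). Pole2.L, a subunit of DNA polymerase epsilon, went from 623 ± 18.6 to 438 ± 50.5 (SD, n = 4), and topbp1.L, an activator of the replication checkpoint, from 620 to 443. Rfwd3.S, a ubiquitin ligase of DNA repair, fell by 0.92 on the log2 scale. Pcna.L, the sliding clamp, went from 367 to 248 (limma adjusted p = 0.00418, and 0.106 without replicate 4).

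The 7 genes that fell at least 2-fold all had low values, with 5 hpf means of 45.2 to 204. Kxd1.S, a subunit of the BORC complex that moves lysosomes, read 37, 75, 39 and 62 at 5 hpf and 15, 31, 6 and 36 at 7 hpf. Each 7 hpf value lay under every 5 hpf value, with a log2 change of -1.44 ± 0.32 (SE; limma adjusted p = 0.00862, and 0.123 without replicate 3). Cdknx.L, a Xenopus inhibitor of cyclin-dependent kinases, read 67, 84, 46 and 66 and then 23, 55, 8 and 30, with overlap. Its log2 change was -1.40 (limma adjusted p = 0.0294), and it lost the call in 10 of 12 fits that left out a replicate or a library. The remaining 5 genes past 2-fold were ndufa1.S, szl.S, ccnb3.S, ndufb8.S and slc39a1.L, a zinc transporter. Ndufb8.S and slc39a1.L lost the call in 11 and 12 of the 12 leave-out fits.

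The most abundant gene that fell was Xelaev18003734m, for which the files give no symbol. It read 18061, 7090, 18064 and 7636 at 5 hpf and 10026, 3571, 11984 and 3870 at 7 hpf. Replicates 1 and 3 were high at both times and each replicate fell, by 0.85 ± 0.07 on the log2 scale (SE; limma adjusted p = 2.43e-05). XB5733004.L, likewise unnamed, read 592, 776, 652 and 793 at 5 hpf and 298, 450, 281 and 418 at 7 hpf, a change of -0.98 ± 0.10 (SE; limma adjusted p = 1.34e-08).

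Nfkbia is the inhibitor that holds NF-kappa-B in the cytoplasm. Nfkbia.L read 281, 319, 278 and 323 at 5 hpf and 94, 191, 115 and 240 at 7 hpf, so that each replicate fell and no values overlapped. Its mean went from 300.2 ± 24.0 to 160 ± 67.7 (SD, n = 4; limma adjusted p = 6.13e-05), and nfkbia.S changed by -0.60 on the log2 scale. Mcl1 blocks apoptosis at the mitochondrion, and mcl1.L read 247, 292, 284 and 286 and then 139, 182, 107 and 148, a change of -0.96 ± 0.13 (SE; limma adjusted p = 6.19e-06). Mcl1.S fell by 0.36 (limma adjusted p = 0.00722, and 0.165 without replicate 4). Dnajb9.S, a chaperone partner of the endoplasmic reticulum, went from 436 ± 62.4 to 230 ± 71.6 (SD, n = 4), while its copy dnajb9.L read 279 and 283 with no call.

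Of 60 tested immediate early and stress genes 6 fell and none rose, with a median of -0.14, where 1.54% of all genes fell and the median was -0.02. Besides the mcl1 copies these were both copies of ier5, an immediate early gene, fos.S, and hsph1.S, a heat shock chaperone, which lost the call in 8 of the 12 leave-out fits. Ier5.L read 186, 236, 192 and 204 at 5 hpf and 106, 133, 119 and 153 at 7 hpf, a change of -0.68 without overlap (limma adjusted p = 0.00133). Ier5.S fell by 0.93 (limma adjusted p = 0.0752 without replicate 1, and 0.277 in the 8 libraries of 5 and 7 hpf alone). Fos.S fell by 0.66 (limma adjusted p = 0.22 without replicate 1). Rhob.S, a small GTPase that was outside this list, went from 473 to 322.

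The maintenance DNA methyltransferase fell in both copies. Dnmt1.S read 4338, 4182, 4970 and 4363 at 5 hpf and 3482, 3450, 3819 and 3658 at 7 hpf. All 4 values were lower, by 0.31 ± 0.04 on the log2 scale (SE; limma adjusted p = 6.09e-07). Dnmt1.L went from 5863 ± 151 to 4918 ± 200 (SD, n = 4; limma adjusted p = 2.01e-06). In all, 4 of 88 tested chromatin genes fell (4.55%, against 1.54% of all genes tested) and 3 rose (3.41%, against 0.473%). The others that fell were npm2.L, the egg nucleoplasmin, at -0.28 (limma adjusted p up to 0.293 when a replicate was left out) and chd1.S, a remodeller, at -0.14 (up to 0.256).

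Signalling and patterning messages gave few calls, and most zygotic members were below the filter in this fraction. Of 26 genes for nodal ligands and early Wnt targets 3 were tested and none passed, and of 87 mesendoderm transcription factor genes 12 were tested and none passed. Of 15 tested BMP-responsive genes 2 fell (13.3%, against 1.54% of all genes tested). Szl.S, sizzled, a feedback inhibitor of chordin cleavage, read 60, 51, 84 and 71 at 5 hpf and 21, 37, 25 and 32 at 7 hpf, without overlap (limma adjusted p = 0.0127, and 0.171 without replicate 3). Smad6.L, an inhibitory Smad, went from 614 to 496 (limma adjusted p = 0.0318, and up to 0.254 with a library left out).

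Cyp26a1.L, which breaks down retinoic acid, read 375, 475, 437 and 463 at 5 hpf and 257, 293, 232 and 281 at 7 hpf. The groups were separate, with a log2 change of -0.72 ± 0.11 (SE; limma adjusted p = 7.88e-05). Klf2.S, a Kruppel-like factor, went from 669 to 510. Hwa.L, the maternal membrane protein huluwa that is needed for the dorsal axis in zebrafish and Xenopus, went from 1135 to 925 (limma adjusted p = 0.00959, and 0.115 without replicate 4). Of 49 tested germ plasm and vegetal messages 1 fell (2.04%, against 1.54% of all genes tested). This was wnt11b.L, a vegetally localized Wnt ligand, which fell by 0.44 (limma adjusted p = 0.0317, and 0.239 without replicate 3).

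Few genes of the respiratory chain and ribosome passed, while most had values below 0. Of 145 nuclear genes of the respiratory chain 5 fell, none rose, and 126 had a change below 0, with a median of -0.23; over all genes 1.54% fell, 55.1% had a change below 0 and the median was -0.02. Ndufa1.S, a complex I subunit, read 56, 75, 69 and 66 at 5 hpf and 14, 34, 28 and 33 at 7 hpf, a change of -1.32 ± 0.28 without overlap (SE; limma adjusted p = 0.00453, and 0.0871 without replicate 1). Of 140 ribosomal protein genes 2 fell, among them rpl5.S, which lost the call in 11 of the 12 leave-out fits, and 113 had a change below 0, with a median of -0.15. The share of ribosomal genes that fell, 1.43%, was near that of all genes. With quantile normalization these medians were -0.16 and -0.10. Of 71 proteasome genes 2 fell (2.82%), psmc3.L and psma3.L, which lost the call in 9 and 10 of the 12 leave-out fits. Psma3.L also did not pass with quantile normalization or with size factors computed again. Of 32 histone genes none passed. Of 129 RNA polymerase II and Mediator genes 3 fell (2.33%) and 2 rose (1.55%, against 0.473% of all genes tested). Med26.L, a Mediator subunit, changed by -0.26 (limma adjusted p = 4.92e-04). Of 43 ectoderm and early embryonic factors 4 fell (9.30%), among them klf2.S, and none rose. Also among them were hes4.S_gene44743 and hes4.S_gene36932, entries of the same symbol, which lost the call in 10 and 11 of the 12 leave-out fits. Neither passed with quantile normalization or with size factors computed again. Only 3 of 38 late differentiation genes and 6 of 41 genes of ovary, follicle and blood were tested, and none passed. No mitochondrially encoded gene was matched.

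**Figure D3:**
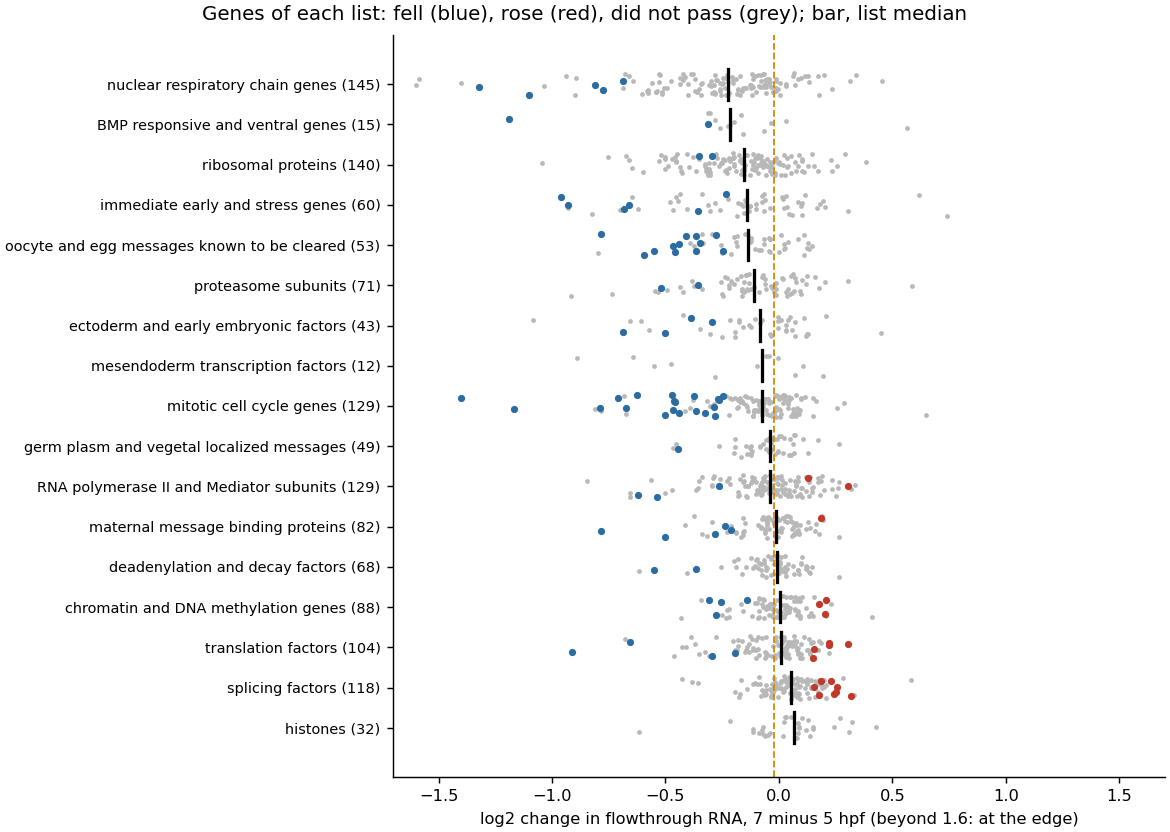
The log2 change from 5 to 7 hpf (x axis) of each tested gene in 17 lists of at least 12 tested genes (y axis, number tested in brackets), with blue for genes that fell, red for genes that rose, a black bar for the list median and a dashed line for the median of all genes (-0.02). Mitotic genes and cleared oocyte messages hold 20 and 12 blue points, and splicing factors hold 8 red points.

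Of 118 tested splicing factors 8 rose and none fell, where 0.473% of all genes rose. Their median was 0.05, against -0.02 over all genes, and the count of higher members was 5 with quantile normalization and 1 without replicate 1. Hnrnpab.L, an hnRNP protein, read 7567, 7353, 6701 and 6394 at 5 hpf and 8350, 9091, 7670 and 8022 at 7 hpf. No values overlapped, and the log2 change was 0.24 ± 0.04 (SE; limma adjusted p = 0.00255). With quantile normalization its change was 0.10 and did not pass (limma adjusted p = 0.0858). Snrpd3, an Sm protein of the spliceosome, rose in both copies, snrpd3.L from 1631 ± 68.6 to 2038 ± 210 (SD, n = 4) and snrpd3.S from 884 ± 89.5 to 1053 ± 60.4. Their limma adjusted p was 0.139 without replicate 4 and 0.194 without replicate 1. Dbr1.L, which opens intron lariats and was outside the list, went from 1735 to 2195 (limma adjusted p = 0.0468, and 0.29 without replicate 1).

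Hmgb2.L, an abundant chromatin protein, read 8213, 8528, 8883 and 7716 at 5 hpf and 9438, 10009, 9546 and 9450 at 7 hpf. The groups were separate, with a log2 change of 0.21 ± 0.03 (SE; limma adjusted p = 2.59e-05), and with quantile normalization the change was 0.11 with an adjusted p of 0.562 from limma. Its relative hmgb3.L rose from 3448 to 3974 (limma adjusted p = 7.67e-04, and 0.0517 without replicate 4).

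The symbol-bearing gene with the largest rise was lman2.S, a cargo receptor of the secretory pathway. It read 805, 664, 724 and 636 at 5 hpf and 952, 889, 965 and 816 at 7 hpf. All 7 hpf values lay above those of 5 hpf, with a log2 change of 0.36 ± 0.06 (SE; limma adjusted p = 6.22e-04), while the copy lman2.L read 158 and 178 with no call. Eif1ax.L, an initiation factor, rose by 0.30 ± 0.05 (SE), with a limma adjusted p of 4.93e-05. Of 104 tested translation factors 5 rose (4.81%, against 0.473% of all genes tested) and 4 fell (3.85%, against 1.54%). Most of these calls that were followed were not stable. Among translation factors that rose, etf1.S, eif3a.L and eif2s2.S lost the call in 5, 9 and 12 of the 12 leave-out fits. Among those that fell, eif4a1.S and eif2a.L lost it in 9 and 10. Mnat1.L, a subunit of the TFIIH kinase, went from 442 ± 24.2 to 547 ± 32.3 (SD, n = 4; limma adjusted p = 0.123 without replicate 3). Drap1, a corepressor that binds TATA-bound complexes, rose in both copies, drap1.L by 0.29 and drap1.S by 0.35 (limma adjusted p = 0.111 and 0.127 without replicate 4).

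The highest-reading loci that rose depended on the scaling. LOC108698363 read 34596, 40576, 37687 and 47862 at 5 hpf and 49162, 49463, 53176 and 51799 at 7 hpf, a change of 0.35 (limma adjusted p = 0.0166, and up to 0.209 when a replicate was left out). With quantile normalization its sign turned, to -0.14 (limma adjusted p = 0.556). LOC108698366 rose by 0.33 (limma adjusted p = 0.0399, and up to 0.229 when a replicate was left out), and by 0.07 without a call under quantile normalization.

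Both genes that rose at least 2-fold were listed at 0 in eggs and read high on beads. Xelaev18031473m, which has no symbol, read 5, 1, 0 and 0 in flowthrough at 5 hpf and 34, 36, 37 and 38 at 7 hpf. The 7 hpf values were nearly equal and all above those of 5 hpf, and the log2(value + 1) change was 4.32 ± 0.41 (SE). It passed the filter on low values only through the 7 hpf libraries, so a difference was required of it and its call adds nothing. Both egg libraries read 0, and the beads read 5030, 3710, 20094 and 55472 at 7 hpf. LOC108719063, a long noncoding RNA in the RefSeq annotation, read 4, 14, 11 and 15 at 5 hpf and 22, 72, 54 and 125 at 7 hpf. It rose in every replicate, by 2.41 ± 0.29 (SE; limma adjusted p = 6.09e-07), and was also at 0 in both egg libraries. In total RNA it read 232 and 311 at 5 hpf and 10546 and 11316 at 7 hpf in replicates 1 and 2, and on beads 18833, 18040, 6070 and 24160 at 7 hpf.

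**Figure D4:**
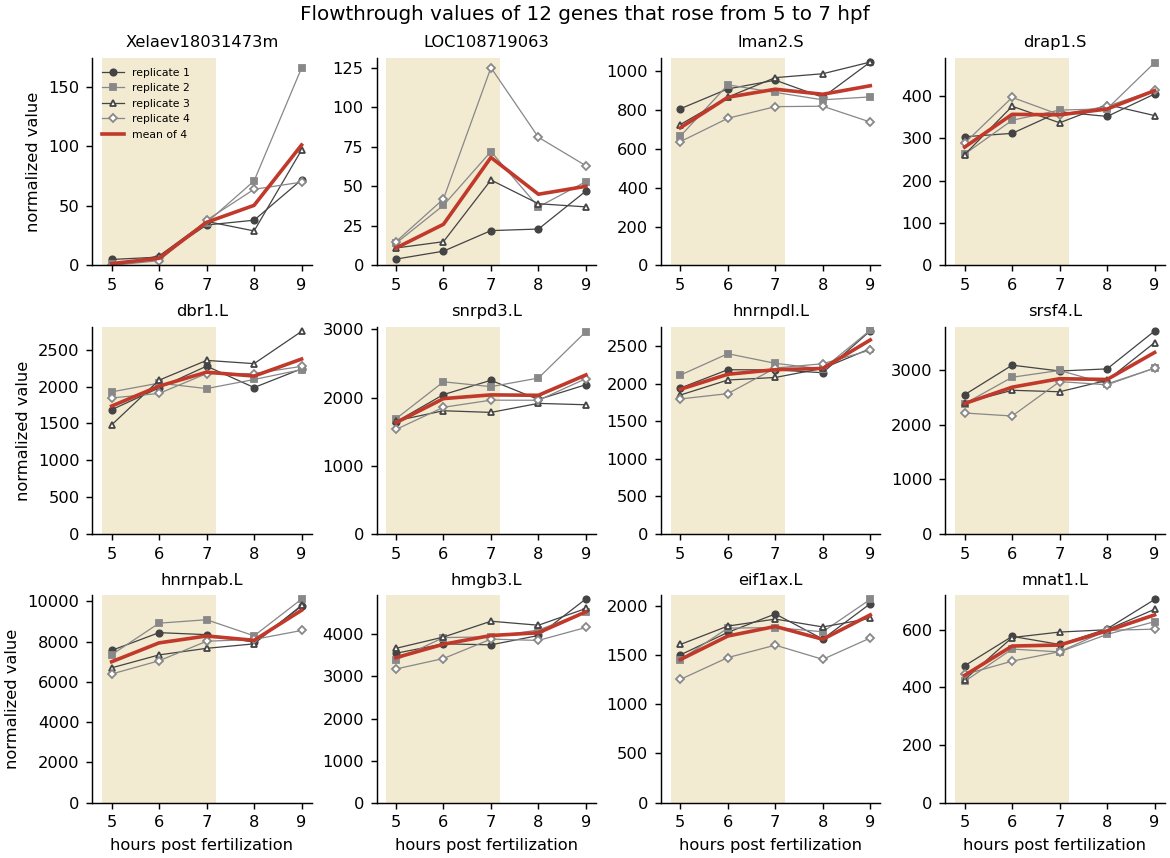
Flowthrough values of 12 genes that rose, from 5 to 9 hpf (x axis, hours) in normalized units (y axis, from 0), with 1 thin line per replicate and the mean of 4 in red; the shaded span is 5 to 7 hpf. Xelaev18031473m and LOC108719063 start from means of 1.5 and 11, and the mean of the other 10 genes rises by 13.7% (hnrnpdl.L) to 28.2% (lman2.S) from 5 to 7 hpf on the log2 scale turned to percent.

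The second copies of the called genes mostly had values of the same sign. Of 169 genes that fell and had their second copy tested, 150 had a second copy with a change below 0 (88.8%, against 55.1% of all genes tested), and in 22 gene pairs both copies fell. These pairs included aurka, btg4, cdk1, cks2, dnmt1, fbxo43, ier5, kif2c, mcl1, nfkbia, plk1, rhob, tacc3 and ube2c. Of 56 genes that rose 53 had a second copy with a change above 0 (94.6%, against 44.9%), and in 7 pairs both rose, drap1, dync2i1, golim4, hmgb3, hnrnpdl, impa2 and snrpd3. In no pair did the copies pass in opposite directions. Of the second copies with the same sign, 44 of the 150 and 14 of the 53 were called themselves. Their sign was set by the same calls, and each such pair was counted from both sides. The 88.8% and 94.6% include them, while the shares of all genes carry no such selection. Only for aurka, btg4, dnmt1, nfkbia and plk1 did both copies keep the call in all 12 leave-out fits and with alike pairs averaged. Among the pairs that rose, no copy did. Cks2.S lost the call in 9 of the 12 leave-out fits, kif2c.L in 6 and golim4.L in 11. Reads of near-identical copies may have been shared between them by the counting.

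Total RNA of the first experiment gave a side readout of the same genes, from other libraries of replicates 1 and 2. Flowthrough libraries of the same replicate numbers helped to call these genes, so the readouts may not be independent. Of the 279 genes that fell in flowthrough, 258 were lower in total RNA at 7 than at 5 hpf (92.5%, against 50.5% of all genes tested), with a median of -0.31, and 33 passed as lower there, where 0.275% of all genes did. Dnmt1.L changed by -0.44 in total RNA (limma adjusted p = 6.60e-04), cdk1.S by -0.57 (limma adjusted p = 0.0094) and ccnb3.S by -1.09 (limma adjusted p = 0.0434). Mtss1.1.L, a membrane-bending protein, was the single gene that passed in the opposite direction, at 0.58 (limma adjusted p = 0.00252); its flowthrough call was lost in 8 of the 12 leave-out fits. Without the replicate block none of the 279 passed in total RNA.

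Few of the genes that rose in flowthrough passed in total RNA. Of the 86, 52 were higher there (60.5%, against 49.3% of all genes tested), the median was 0.03, and only LOC108719063 passed as higher, at 5.34 ± 0.08 (SE; limma adjusted p = 3.96e-20), where 0.341% of all genes did. Hnrnpab.L changed by -0.10 and lman2.S by -0.30, neither with a call. On beads of the first experiment 81 of the 86 were higher (94.2%, against 48.6%), with a median of 0.23. Like total RNA, this bead readout may not be independent of the flowthrough calls.

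**Figure D5:**
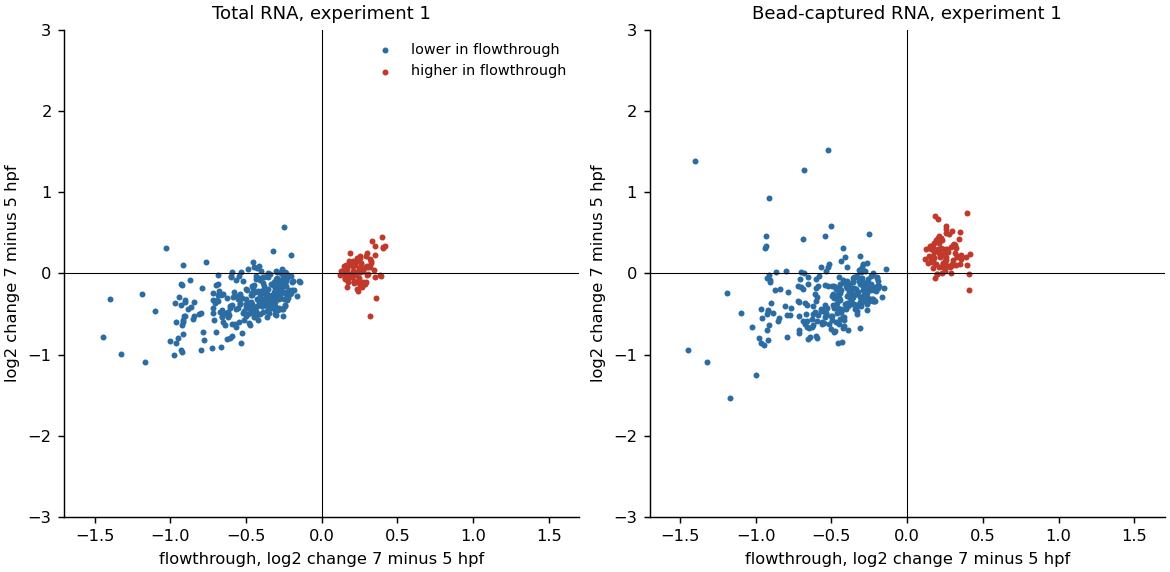
Log2 change from 5 to 7 hpf in total RNA (left, y axis) and in bead RNA (right, y axis) of the first experiment against the change in flowthrough RNA (x axis), for the genes that fell (blue) and rose (red) in flowthrough; Xelaev18031473m and LOC108719063 lie outside the axes. Most blue points lie below 0 in both panels, while the red points straddle 0 in total RNA (52 of 86 above) and lie above 0 on beads (81 of 86).

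Most genes that fell in flowthrough were also lower on beads. Of the 279, 245 were lower on beads of the first experiment (87.8%, against 51.3% of all genes tested), with a median of -0.30. Flowthrough is the RNA that the beads left, and libraries of the same replicate numbers helped to call these genes. The bead readout may therefore not be independent. The difference of the change between beads and flowthrough, tested over 40 libraries, passed for 30 genes as higher on beads (0.165%) and for none as lower (0%). Among the flowthrough calls these were mtss1.1.L, with a difference of 0.66 ± 0.12 (SE; limma adjusted p = 0.00651), and LOC108719063, with 2.15 ± 0.43 (SE; limma adjusted p = 0.0204). Bead libraries of the second experiment were uneven for moderately abundant messages, as in nfkbia.L, which read 0 and 100 on beads at 7 hpf in replicates 3 and 4.

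Within the first experiment alone the difference passed for 7 of the flowthrough calls, all higher on beads, where 0.457% of all genes tested were higher and 0% lower. Ier5.L read 274 and 191 on beads at 5 hpf and 670 and 457 at 7 hpf while it fell in flowthrough, a difference of 2.08 (limma adjusted p = 3.11e-07). Rhob.L gave a difference of 1.84, rhob.S of 0.88, ier5.S of 1.03 and cdknx.L of 2.44 in the same direction (limma adjusted p = 0.000604, 0.00854, 0.0183 and 0.0315). Mtss1.1.L and hnrnpdl.L, an hnRNP, gave 0.79 and 0.58. The flowthrough calls of rhob.L and hnrnpdl.L were lost in 5 and 9 of the 12 leave-out fits. In total RNA of replicates 1 and 2 the copies of ier5 and rhob changed by -0.13 to -0.02, with no call.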

How the data were processed

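Flowthrough RNA was measured by rRNA-depleted RNA-seq in 4 libraries at each of 5 times. The deposited values are scores, whole-number normalized read values; the authors' quantification with Salmon 0.12.0 and the normalization with DESeq2 are named per the submitters' processing notes. Which assembly the reads were matched to is not given in the sources used here; 1 unnamed empty column was not used. Column totals of the 8 libraries were 7455643 to 7903007, with 23420 to 25064 genes above 0; raw depth is unknown.

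All 20 flowthrough libraries were fitted on log2(value + 1) with limma 3.58.1 (R 4.3.3, statmod 1.5.0; trend, robust), with time and the replicate number as terms and 12 residual degrees of freedom. A gene was called at a Benjamini-Hochberg adjusted p under 0.05 over the 18171 genes. Folds are on the log2(value + 1) scale and understate the change of low genes. The block was used because replicates were paired by number: the correlation of same-numbered deviations from the group means was 0.722, 0.742, 0.726 and 0.781. Replicates 1 and 3 gave 0.621 and 0.627 and replicates 2 and 4 gave 0.667 and 0.685, and the other pairs were negative. Total RNA (10 libraries) and the bead minus flowthrough difference (40 libraries) were fitted likewise. The method was also tested on simulated data, whose outcome is not given here and adds no support to the calls. Figures were drawn with matplotlib 3.10.9 under Python 3.11.15.

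Named genes were, by rule, the 12 called genes without overlap with the largest change in each direction (mean of at least 50, proper symbol), up to 3 called members of each of 21 lists, their second copies, and a set of maternal messages. Genes outside the rule were chosen after their values were seen, among them Xelaev18031473m, LOC108719063, Xelaev18003734m, XB5733004.L, LOC108698363, LOC108698366, cdknx.L, ndufb8.S, slc39a1.L, cdk1.L, plk1, plk3.S, aurka.S, aurkb.L, fbxo5.S, fbxo43, tacc3.S, melk.L, birc7.S, top2a.L, pole2.L, topbp1.L, pcna.L, zfp36l2.1.S, celf1.S, fos.S, hsph1.S, bmp15.L, npm2.L, chd1.S, hwa.L, cyp26a1.L, rhob, mtss1.1.L, hnrnpdl.L and hmgb3.L. The comparison and the lists were chosen with earlier results of these data known. Of the genes tested, 16157 matched a symbol in the RefSeq table for Xenopus_laevis_v10.1, which supplied the class of LOC108719063. Each experiment is described as its own clutch, but nothing states that replicates 1 and 3, or 2 and 4, came from separate parents. The p-values therefore measure only the spread between these samples.

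Alternatives were other terms, samples, scalings, pseudocounts (0.5 and 10) and filters, each replicate or library left out, and averaging of replicates 1 and 3 and of 2 and 4, the last chosen after seeing the data.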

Additional observations from a re-analysis of the deposited data

Results flagged for a closer look

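Among 334 groups of 4 values examined, 11 held a library whose gap to the nearest other value exceeded Dixon's 95% critical share of the group's range. Chance marks about 1 in 20 such groups. At 5 hpf, pinx1.L read 725 in replicate 3 (851 to 863 in the others), kif2c.S read 750 in replicate 2 (832 to 845) and axin1.L read 476 in replicate 1 (570 to 583). At 7 hpf, replicate 4 read 357 for mcl1.S (431 to 435), 963 for snrpd3.S (1076 to 1092), 68 for ndufb8.S (21 to 29) and 532 for axin1.L (413 to 421). Also at 7 hpf, replicate 3 read 5216 for dnmt1.L (4797 to 4835), 2150 for plk1.L (2513 to 2535) and 2770 for hmgb3.S (2337 to 2396), and replicate 2 read 1968 for impa2.L (1787 to 1793). Of these genes, the flowthrough calls of axin1.L, hmgb3.S, kif2c.S, impa2.L and pinx1.L were lost in 10, 7, 5, 4 and 2 of the 12 leave-out fits.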

How the results depend on the processing

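Counts are given as genes higher and lower, 86 and 279 as reported. Without the replicate block they were 1 and 7 with an experiment term and 1 and 1 with none, and those of at least 2-fold were 1 and 0 in both. The 8 libraries alone gave 125 and 453 (4 and 15 at 2-fold), ratio size factors 137 and 219, no filter 57 and 169 (13 higher at 2-fold), no trend 12 and 107 (4 lower at 2-fold), experiment 1 alone 23 and 36, experiment 2 alone 12 and 43, and averaged pairs 35 and 138. A mean of at least 50 left 0 and 2 at 2-fold. Leaving out a replicate or library gave 22 to 57 higher and 99 to 224 lower, and 3 to 20 lower at 2-fold. Ratio size factors moved the share of higher calls from 23.6% to 38.5%. Without the replicate block, 0 flowthrough calls passed as lower in total RNA and 0 in the bead difference; experiment 1 alone gave 7 in the latter. The cause of these shifts was not tested.

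LOC108698363 turned to -0.14 under quantile normalization. The other sign changes were in genes that were not called. In quantile normalization these were ildr1.L (0.0070), ccna1.L (-0.11), pou5f3.3.L (-0.024) and gdf1.L_gene48962 (0.053), and with ratio size factors ildr1.L (0.019). In experiment 1 they were ildr1.L (0.038), pou5f3.3.L (-0.025), mos.L (0.013), h1-8.L (0.12) and gdf1.L_gene50666 (-0.070). In experiment 2 they were myod1.L (0.024), dbr1.S (-0.060), erh.L (-0.11), h1-8.S (-0.0073), gdf1.L_gene47490 (0.15), gdf1.L_gene48962 (0.28), ccnb1.S (-0.054), dazl.L (-0.072) and pou5f3.2.L (-0.021). Leave-outs spanned 0 for ildr1.L (-0.069 to 0.091), erh.L (-0.047 to 0.096), h1-8.S (-0.0022 to 0.040), ccnb1.L (-0.075 to 0.014), pou5f3.3.L (-0.014 to 0.041), gdf1.L_gene47490 (-0.30 to 0.024), gdf1.L_gene48962 (-0.26 to 0.38), h1-8.L (-0.11 to 0.029), gdf1.L_gene50666 (-0.066 to 0.11), ccnb1.S (-0.0087 to 0.12) and dazl.L (-0.010 to 0.12). List medians near 0 changed sign for deadenylation and maternal binding genes (ratio) and chromatin genes (quantile).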
